A study of Homo sapiens and Mus musculus with 24 samples.

Results

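The genes described here are the immediate early genes FOS, FOSB, EGR1, JUN, IER2 and IER3 and the feedback inhibitors of ERK signalling DUSP6, SPRY2, SPRY4 and SPRED1. They were chosen by symbol, with earlier results of these data known, from an RNA-seq table of LNCaP cells. All 10 were found among its 44564 gene names. LNCaP is a human prostate cancer epithelial line that responds to androgen, and the labels give its genotype as WT. Cells were collected on day 7 in 6 groups of 2 libraries each. In the first pair of groups LNCaP cells grew alone with the vehicle DMSO or with 1 µM enzalutamide, an antiandrogen that blocks the androgen receptor. The other groups received the same 2 treatments in coculture with CCAFs or with CRPCCAFs, fibroblasts whose names the labels leave unexplained. The titles and the table name these groups p53 and p53_ca, and the treatment labels tie p53 to CCAFs and p53_ca to CRPCCAFs. The labels also do not say whether the cocultured cells touched. The other libraries of the series hold cancer-associated fibroblasts from PtenPC-/-; Trp53PC-/- mice, some titled p53 and some, from ADT mice, titled ca. No label says that the cocultures held those cells, and their libraries are not used here. All groups grew with fetal bovine serum. Libraries held 17850431 to 22187880 reads, as recovered from the steps of the values. Levels are in RPKM, reads scaled to transcript length and sequencing depth, and every ± is an SD over both libraries in a group. Differences are on the scale of log2(RPKM + 1), which understates the change of low genes, and are given with the standard error (SE) and the adjusted p of limma, called at 0.05. The 2 libraries of a group are labelled as biological replicates, with no word on whether they came from separate cultures, so the tests measure the spread between these libraries, which may be technical. In bulk RNA, fewer cells of a kind and less RNA per cell cannot be told apart.

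ERK is the last kinase of the RAS, RAF and MEK cascade that growth factor receptors switch on. Its substrates include ternary complex factors, which act with serum response factor at CArG boxes and turn on immediate early genes within minutes, without new protein synthesis. A second set of targets feeds back on the cascade: DUSP6 removes the activating phosphates from ERK, and Sprouty and SPRED proteins restrain RAS and RAF activation. The mRNAs of immediate early genes are short-lived, so a level on day 7 reports transcription close to harvest rather than the first response to a treatment.

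The promoters of FOS, FOSB and EGR1 are shown because FOS and EGR1 had the widest span of levels among the immediate early genes here, whereas FOSB, a close relative of FOS, was at 0.377 RPKM or less in every library. The windows are the 250 bases before the RefSeq start in GRCh38.p14, written 5′ to 3′, with capitals at CArG boxes (a run of A and T between CC and GG) and at TGACGT, the core of the cyclic AMP response element, on either strand.
EGR1, chr5:138465229-138465478, + strand: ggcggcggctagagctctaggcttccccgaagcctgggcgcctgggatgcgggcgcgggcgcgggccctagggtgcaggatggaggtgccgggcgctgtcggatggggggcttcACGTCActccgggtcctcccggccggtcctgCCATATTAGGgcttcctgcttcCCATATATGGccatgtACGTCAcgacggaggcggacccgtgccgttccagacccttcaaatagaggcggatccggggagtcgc
FOS, chr14:75278578-75278827, + strand: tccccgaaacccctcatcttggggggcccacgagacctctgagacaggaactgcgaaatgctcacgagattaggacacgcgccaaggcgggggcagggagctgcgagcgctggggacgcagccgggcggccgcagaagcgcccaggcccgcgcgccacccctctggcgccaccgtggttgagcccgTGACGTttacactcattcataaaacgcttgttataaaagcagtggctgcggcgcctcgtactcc
FOSB, chr19:45467746-45467995, + strand: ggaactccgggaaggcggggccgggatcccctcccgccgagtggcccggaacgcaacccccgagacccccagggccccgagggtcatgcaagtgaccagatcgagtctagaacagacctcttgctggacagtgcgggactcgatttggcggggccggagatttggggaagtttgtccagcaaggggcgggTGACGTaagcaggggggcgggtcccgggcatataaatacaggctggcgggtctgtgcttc
The EGR1 window held 2 CArG boxes, 96 and 74 bases before the start, and 2 TGACGT matches, 131 and 62 bases before it. The FOS window held 1 TGACGT match, 59 bases before the start, and the FOSB window 1, 55 bases before it. Neither of these windows held a CArG box, and sequence farther upstream than 250 bases was not searched for any gene. Of 35116 promoter windows of this length, 1.16% held a CArG box and 7.10% held TGACGT. RefSeq windows were found for 9 of the 10 genes, with several for SPRY2, and no CArG box or TGACGT was present in those of JUN, IER2, DUSP6, SPRY2, SPRY4 or SPRED1. The ETS core CCGGAA, held by 14.5% of all windows, was found once in the windows of FOSB and IER2 and in 1 window of SPRY2. The AP-1 site TGANTCA, held by 6.57%, was in none of them. The SP1 core GGGCGG, held by 42.6%, was in at least 1 window of FOS, FOSB, JUN, IER2, SPRY2, SPRY4 and SPRED1. A match describes the sequence only.

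FOS encodes the Fos subunit of the AP-1 transcription factor. It measured 0.602 and 0.399 RPKM in LNCaP alone with DMSO, 0.438 and 0.688 alone with enzalutamide, and 0.647 and 0.754 with CCAFs and DMSO. With CCAFs and enzalutamide it measured 2.04 and 2.06 RPKM, with CRPCCAFs and DMSO 9.88 and 10.0, and with CRPCCAFs and enzalutamide 12.6 and 12.9. Both CRPCCAF groups lay far above every other library, and the CCAF group with enzalutamide stood between them and the rest. The lowest FOS value rested on 19 reads and the highest on 546. FOS was 19.9-fold higher with CRPCCAFs than alone under DMSO (log2 2.87, SE 0.0988, adjusted p = 5.9e-08) and 22.6-fold higher under enzalutamide (log2 3.14, adjusted p = 2.1e-08). With CCAFs it was 3.64-fold higher under enzalutamide (log2 0.97, adjusted p = 0.00014). Under DMSO the CCAF group averaged 0.70 ± 0.0755 RPKM against 0.50 ± 0.143 alone, with the 95% interval of the log2 difference from -0.04 to 0.41 (adjusted p = 0.30).

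EGR1 encodes a zinc finger transcription factor. It measured 0.638 and 0.534 RPKM alone with DMSO, 0.349 and 0.545 alone with enzalutamide, 0.363 and 0.435 with CCAFs and DMSO, and 0.757 and 0.513 with CCAFs and enzalutamide. With CRPCCAFs it measured 10.5 and 10.8 RPKM under DMSO and 22.1 in both enzalutamide libraries. The 8 libraries without CRPCCAFs lay at 0.757 RPKM or less, with neighbouring groups in the order of levels overlapping, and all 4 with CRPCCAFs lay above them. CCAFs with DMSO lay below both LNCaP alone with DMSO and CCAFs with enzalutamide. EGR1 was 18.1-fold higher with CRPCCAFs than alone under DMSO (log2 2.87, adjusted p = 6.2e-08) and 49.5-fold higher under enzalutamide (adjusted p = 4.4e-09). Its group means spanned 55.5-fold, the widest span of the 10 genes. Behind the lowest and highest values of EGR1 stood 22 and 1363 reads. Between CCAFs and LNCaP alone EGR1 was not called under DMSO or enzalutamide (adjusted p = 0.31 and 0.27).

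FOSB encodes another Fos protein of AP-1. Its 12 values lay between 0.161 and 0.377 RPKM and rested on 11 to 28 reads each, so it stayed under the 1 RPKM filter in every library. The highest group, CRPCCAFs with enzalutamide, averaged 0.374 ± 0.00511 RPKM and the lowest, CRPCCAFs with DMSO, 0.173 ± 0.0174. In the fit without a filter, its smallest adjusted p over all comparisons was 0.086, for enzalutamide against DMSO with CRPCCAFs. Under DMSO, its log2 difference between CRPCCAFs and LNCaP alone was -0.10 with a 95% interval from -0.29 to 0.10. For FOS in the same fit that interval ran from 2.64 to 3.11.

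JUN encodes the AP-1 subunit that pairs with Fos proteins. It measured 16.3 and 16.2 RPKM alone with DMSO, 19.7 and 19.9 alone with enzalutamide, 14.2 and 14.0 with CCAFs and DMSO, and 20.2 and 19.5 with CCAFs and enzalutamide. With CRPCCAFs it measured 29.3 and 30.7 RPKM under DMSO and 27.5 and 28.8 under enzalutamide. JUN was thus well expressed in every library, and the 4 CRPCCAF libraries were the highest. It rose 1.84-fold with CRPCCAFs under DMSO (log2 0.84, SE 0.0407, adjusted p = 5.7e-07) and 1.42-fold under enzalutamide (log2 0.49, adjusted p = 1.5e-05). With CCAFs under DMSO it fell by 0.20 on the log2 scale (adjusted p = 0.016), and this call was lost without either library of either group (adjusted p = 0.068 to 0.099) and in a fit of those groups only (0.054). Under enzalutamide JUN differed between CCAFs and LNCaP alone by 0.00 (95% interval -0.09 to 0.09).

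IER2 encodes a small nuclear protein of the immediate early class. Per length it had the highest group mean of the 10 genes in every group but CRPCCAFs with DMSO, where JUN averaged 30.0 RPKM and IER2 29.7. It measured 25.8 and 23.0 RPKM alone with DMSO and 33.5 and 35.4 alone with enzalutamide. It measured 24.8 and 24.5 RPKM with CCAFs and DMSO, 33.0 and 35.7 with CCAFs and enzalutamide, 28.9 and 30.4 with CRPCCAFs and DMSO, and 44.8 and 40.7 with CRPCCAFs and enzalutamide. In each culture the enzalutamide libraries were above the DMSO libraries. The rise with CRPCCAFs was small, 1.22-fold under DMSO (log2 0.27, SE 0.0658, adjusted p = 0.012) and 1.24-fold under enzalutamide (log2 0.30, adjusted p = 0.0059). The IER2 call under DMSO was lost without the second library alone (adjusted p = 0.090) or the second with CRPCCAFs (0.066), and that under enzalutamide without the first with CRPCCAFs (0.051).

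IER3 encodes a stress- and growth factor-inducible protein linked to cell survival. Across the 8 libraries without CRPCCAFs it lay between 2.97 and 3.80 RPKM. It measured 4.68 and 6.30 RPKM with CRPCCAFs and DMSO and 12.3 in both libraries with CRPCCAFs and enzalutamide. The CRPCCAF groups did not overlap the others or each other, although the 2 DMSO libraries stood well apart. IER3 was 1.68-fold higher with CRPCCAFs than alone under DMSO (log2 0.59, SE 0.113, adjusted p = 0.0037) and 3.79-fold higher under enzalutamide (log2 1.65, adjusted p = 4e-06).

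**Figure D1:**
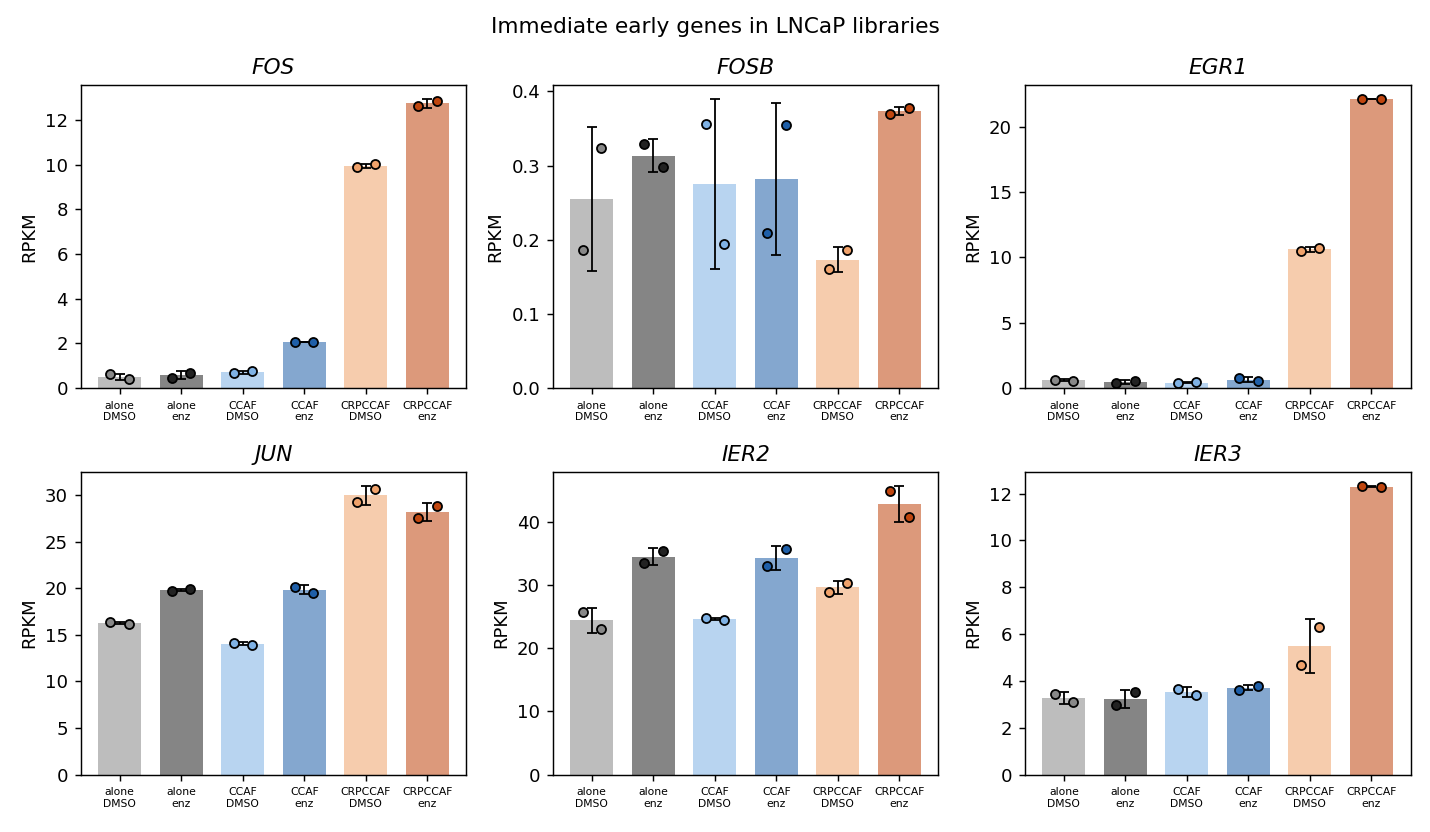
Levels of the 6 immediate early genes in RPKM by group (alone, with CCAFs or with CRPCCAFs, each with DMSO or with enzalutamide, written enz). Bars are means of 2 libraries, error bars SD, and points the libraries, and each panel has its own scale. FOS and EGR1 were at 9.88 RPKM or more in the CRPCCAF groups and at 2.06 or less elsewhere, while FOSB stayed at 0.377 RPKM or less in all 12 libraries.

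Of the feedback inhibitors, DUSP6, the phosphatase specific for ERK, was low throughout. It measured 0.319 and 0.227 RPKM alone with DMSO, 0.190 and 0.278 alone with enzalutamide, 0.0609 and 0.247 with CCAFs and DMSO, and 0.248 and 0.316 with CCAFs and enzalutamide. With CRPCCAFs it measured 0.456 and 0.429 RPKM under DMSO and 0.988 and 0.779 under enzalutamide. These DUSP6 values rested on 4 to 60 reads, none reached 1 RPKM, and the 4 CRPCCAF libraries were the highest. In the fit without a filter DUSP6 was 3.77-fold higher with CRPCCAFs than alone under enzalutamide (log2 0.61, SE 0.0944, adjusted p = 0.0032), where 8.60% of 33693 genes rose. Under DMSO the same comparison gave 1.62-fold (log2 0.18, adjusted p = 0.31).

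SPRY2, a Sprouty protein, lay between 0.250 and 0.615 RPKM in the 12 libraries, with 16 to 44 reads behind each value. Every pair of neighbouring groups in its order of levels overlapped, and its smallest adjusted p in the fit without a filter was 0.47. Its largest group mean was 1.42-fold above its smallest. Between CRPCCAFs and LNCaP alone under enzalutamide, the log2 difference of SPRY2 was 0.02 with a 95% interval from -0.25 to 0.29.

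SPRY4, another Sprouty protein, had an order of its own. It measured 0.342 and 0.172 RPKM alone with DMSO, 0.243 and 0.360 with CCAFs and DMSO, and 0.360 and 0.565 with CRPCCAFs and DMSO. With enzalutamide it measured 6.73 and 6.31 RPKM alone, 2.41 and 2.40 with CCAFs, and 3.36 and 3.43 with CRPCCAFs. The DMSO groups overlapped except for those with CRPCCAFs and alone, every enzalutamide library was above every DMSO library, and LNCaP alone with enzalutamide was highest. Under enzalutamide SPRY4 was 2.71-fold lower with CCAFs than alone (log2 -1.14, SE 0.110, adjusted p = 1e-04) and 1.92-fold lower with CRPCCAFs (log2 -0.77, adjusted p = 0.00052). With a pseudocount of 0.1 and no filter the SPRY4 difference with CRPCCAFs was -0.92 (adjusted p = 0.056). For CRPCCAFs against LNCaP alone under DMSO its log2 difference was 0.22 (adjusted p = 0.17).

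SPRED1, which recruits neurofibromin to RAS, measured 2.04 and 2.25 RPKM alone with DMSO, 2.56 and 2.25 alone with enzalutamide, 2.09 and 2.40 with CCAFs and DMSO, and 2.65 and 2.36 with CCAFs and enzalutamide. With CRPCCAFs it measured 3.18 and 2.73 RPKM under DMSO and 5.19 and 5.44 under enzalutamide. In the order of SPRED1 levels the 4 groups without CRPCCAFs overlapped with their neighbours, although both libraries alone with DMSO lay below both enzalutamide groups, and the CRPCCAF groups lay above all 4. SPRED1 rose 2.21-fold with CRPCCAFs under enzalutamide (log2 0.89, SE 0.0937, adjusted p = 7.5e-05). Under DMSO it rose 1.38-fold (log2 0.33, adjusted p = 0.025). That SPRED1 call was lost without either library alone (adjusted p = 0.13 and 0.053), without the first with CRPCCAFs (0.13), or without a filter (0.062).

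**Figure D2:**
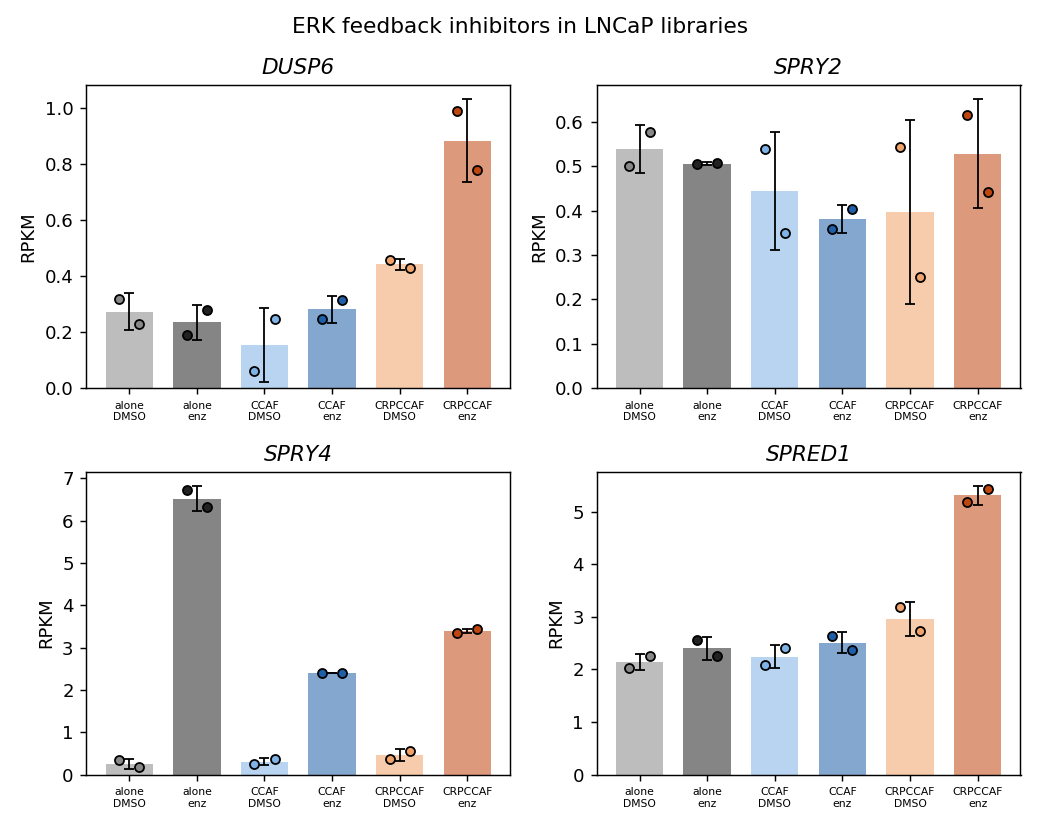
Levels of the 4 feedback inhibitors in RPKM by group, drawn as for the immediate early genes. SPRY4 was at 2.40 RPKM or more in the enzalutamide libraries and at 0.565 or less in the DMSO libraries, whereas DUSP6 and SPRED1 were highest with CRPCCAFs and enzalutamide.

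The coculture comparisons ask how LNCaP expression differed with each fibroblast. Only 7 of the 10 genes passed the filter of 1 RPKM in at least 2 libraries. FOS, EGR1 and SPRY4 passed through the groups where they are high, with 6, 4 and 6 libraries at that level, so the counts below are descriptions. With CRPCCAFs under DMSO, 6 of these 7 rose, where 14.3% of the 16042 genes tested rose. In the fit without a filter, which tested all 10, 5 rose, where 6.54% of 33693 genes rose. With CRPCCAFs under enzalutamide, 6 of the 7 rose and 1 fell, SPRY4, and 36.1% of all genes tested were called in either direction. With CCAFs under DMSO 1 of the 7 was called, JUN, which fell, where 3.99% of all genes fell. With CCAFs under enzalutamide FOS rose and SPRY4 fell, and 19.4% of all genes were called. The 4 comparisons share the LNCaP-alone libraries within each treatment.

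Set directly against CCAFs, CRPCCAFs gave higher levels of 5 of the 7 genes under DMSO, where 7.03% of all genes rose, and of all 7 tested under enzalutamide, where 13.9% rose. Under DMSO the folds were 14.2 for FOS, 26.6 for EGR1, 2.13 for JUN, 1.20 for IER2 and 1.56 for IER3. FOS, EGR1 and JUN passed at adjusted p = 4.5e-07, 2.4e-07 and 7.4e-07. IER2 (log2 0.26, adjusted p = 0.032) lost its call without any of the 4 libraries compared (0.054 to 0.14). IER3 (log2 0.51, adjusted p = 0.018) lost it without either CCAF library (0.063 and 0.11) or the second CRPCCAF library (0.078). Without a filter both missed the threshold (adjusted p = 0.076 and 0.051), which left 3 of the 10 genes called, where 2.79% of all genes rose. SPRED1 and SPRY4 did not pass under DMSO (adjusted p = 0.076 and 0.36). Under enzalutamide the folds were 6.22 for FOS, 34.8 for EGR1, 1.42 for JUN, 1.25 for IER2, 3.31 for IER3, 2.12 for SPRED1 and 1.41 for SPRY4. The SPRY4 call (adjusted p = 0.030) was lost without any of its 4 libraries (0.10 to 0.12) and without a filter (0.071), and the IER2 call (adjusted p = 0.0060) without the first CRPCCAF library (0.053). DUSP6 was 3.14-fold higher in the fit without a filter (adjusted p = 0.0058), where 7.11% of all genes rose. With a pseudocount of 0.1 that DUSP6 difference had an adjusted p of 0.058, and in a fit of only those groups 0.051. FOSB and SPRY2 did not pass (0.54 and 0.52).

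**Figure D3:**
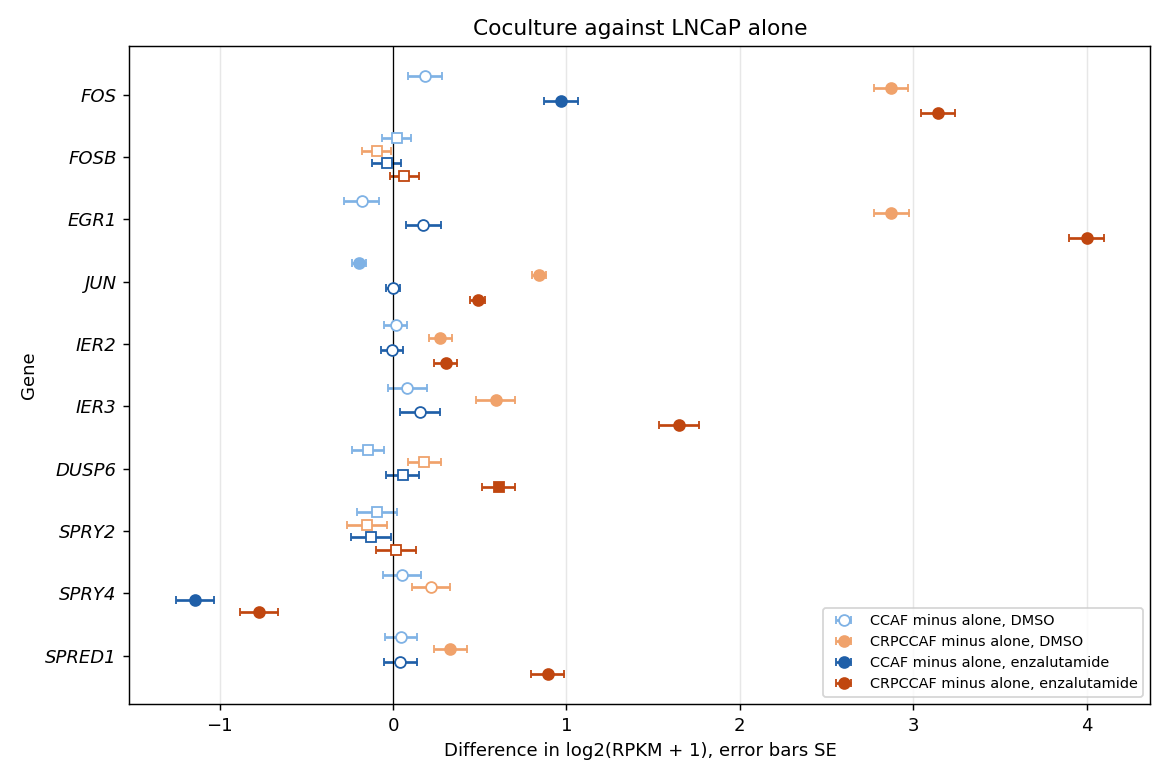
Differences in log2(RPKM + 1) between each coculture and LNCaP alone under the same treatment, with SE. Circles are the filtered fit, squares the fit without a filter for DUSP6, FOSB and SPRY2, and filled symbols have an adjusted p under 0.05. FOS and EGR1 lay at 2.87 or more with CRPCCAFs, and SPRY4 lay below 0 with both fibroblasts under enzalutamide.

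The drug comparisons ask what enzalutamide changed within each culture. In LNCaP alone 3 of the 7 genes past the filter rose, where 30.1% of all genes rose. With CCAFs 4 of the 7 rose, where 26.8% of all genes rose. With CRPCCAFs 6 of the 7 rose, where 30.5% of all genes rose. In the fit without a filter 3, 4 and 7 of the 10 rose, against 13.9%, 12.1% and 14.9% of 33693 genes.

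IER2 and SPRY4 rose in all 3 cultures. IER2 rose 1.41-fold alone, 1.39-fold with CCAFs and 1.44-fold with CRPCCAFs (log2 0.48, 0.46 and 0.51, each with SE 0.0658, adjusted p = 0.00018, 0.00033 and 0.00012). SPRY4 rose 25.3-fold alone, 7.97-fold with CCAFs and 7.34-fold with CRPCCAFs (log2 2.58, 1.39 and 1.59, each with SE 0.110, adjusted p = 6.3e-08, 7.5e-06 and 1.9e-06). These SPRY4 folds are inexact, because its DMSO values rested on 21 to 58 reads each. Those of LNCaP alone were 0.342 and 0.172 RPKM. JUN rose alone (log2 0.27, adjusted p = 0.00036) and with CCAFs (log2 0.47, adjusted p = 1.3e-05). With CRPCCAFs the JUN difference was -0.09 (95% interval -0.18 to 0.00, adjusted p = 0.098), and under median-of-ratios scaling it was -0.12 (adjusted p = 0.026).

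FOS rose 2.93-fold with CCAFs (log2 0.84, adjusted p = 9e-05). With CRPCCAFs it rose 1.28-fold (log2 0.33, adjusted p = 0.018), a call that was lost without any of the 4 libraries compared (adjusted p = 0.062 to 0.084) and with a pseudocount of 0.1 (0.17). In LNCaP alone the FOS difference was 0.06 with a 95% interval from -0.16 to 0.28. EGR1 rose 2.08-fold with CRPCCAFs (log2 0.99, adjusted p = 2.4e-05), against differences of -0.14 alone and 0.22 with CCAFs (adjusted p = 0.28 and 0.095). The EGR1 libraries with CCAFs did not overlap between treatments, and without the second library with CCAFs and enzalutamide the difference was 0.33 and was called (adjusted p = 0.042). IER3 rose 2.24-fold with CRPCCAFs (log2 1.05, adjusted p = 3.9e-05), against -0.01 and 0.06 (adjusted p = 0.94 and 0.69). SPRED1 rose 1.80-fold with CRPCCAFs (log2 0.68, adjusted p = 0.00021), against 0.11 in each of the other cultures (adjusted p = 0.33 and 0.36). DUSP6 rose 2.00-fold with CRPCCAFs in the fit without a filter (log2 0.38, adjusted p = 0.018). This DUSP6 call was lost without either DMSO library (adjusted p = 0.057 and 0.074), without the first enzalutamide library (0.097), with a pseudocount of 0.1 (0.18) and in a fit of only those groups (0.090).

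**Figure D4:**
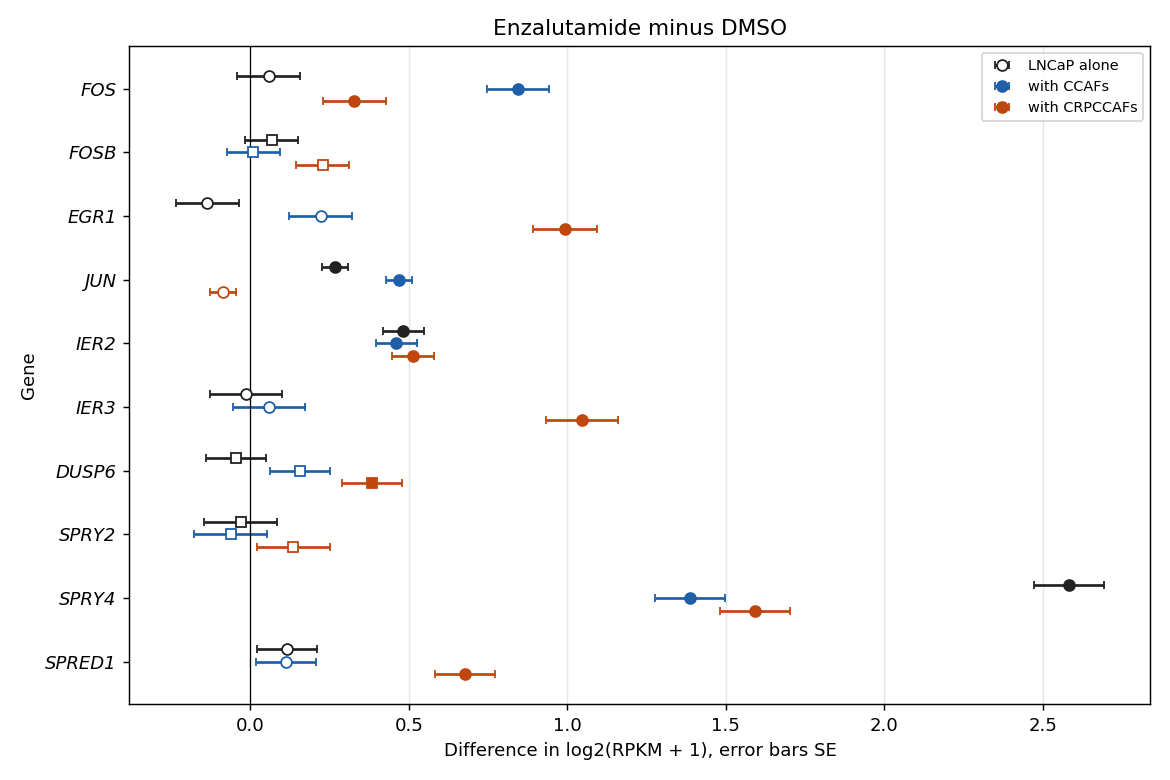
Enzalutamide minus DMSO in log2(RPKM + 1) within each culture, with SE and symbols as in the coculture plot. SPRY4 was at 2.58 in LNCaP alone and at 1.39 and 1.59 in the cocultures, while EGR1, IER3 and SPRED1 were filled with CRPCCAFs only.

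Whether the effect of enzalutamide itself differed between cultures was tested as a difference of log2 changes. Between CCAFs and LNCaP alone it differed for 2 of the 7 genes tested, FOS (0.79, SE 0.140, adjusted p = 0.0095) and SPRY4 (-1.19, SE 0.156, adjusted p = 0.0016), where 7.01% of all genes were called. Between CRPCCAFs and LNCaP alone it differed for 5, and again 7.01% of all genes were called. These were EGR1 (1.13, adjusted p = 0.0015), IER3 (1.06, adjusted p = 0.0042), SPRED1 (0.56, adjusted p = 0.036), JUN (-0.35, adjusted p = 0.0063) and SPRY4 (-0.99, adjusted p = 0.0052). Between CRPCCAFs and CCAFs it differed for 4, EGR1 (0.77, adjusted p = 0.011), IER3 (0.99, adjusted p = 0.0061), SPRED1 (0.56, adjusted p = 0.036) and JUN (-0.55, adjusted p = 0.00042), where 6.45% of all genes were called. SPRY4 did not differ there beyond its error (0.20, 95% interval -0.15 to 0.55). IER2 differed in none of the 3 (-0.02, 0.03 and 0.05). The SPRED1 differences were lost without most single libraries (adjusted p up to 0.12 and 0.13) and without a filter (0.081 and 0.086), and the EGR1 difference from CCAFs without either library with CRPCCAFs and enzalutamide (0.056 and 0.05). In a fit of only the groups compared, the FOS difference between CCAFs and LNCaP alone had an adjusted p of 0.060. The FOS difference between CRPCCAFs and CCAFs was -0.52 (adjusted p = 0.063) and was called in such a fit (0.023). The pseudocount sets part of these values, because FOS, EGR1 and SPRY4 are under 1 RPKM in some of the groups. With a pseudocount of 0.1 and the filter kept, the EGR1 difference from CCAFs was 0.51 and not called (adjusted p = 0.40). Neither SPRED1 difference was called in that fit (0.057 each). With a pseudocount of 0.1 and no filter, chosen after seeing the data, JUN and IER3 stayed called, and the others were not: 1.29 for FOS (adjusted p = 0.069), -1.60 and -1.59 for SPRY4 (0.090 and 0.089), 1.40 and 0.51 for EGR1 (0.060 and 0.58), and 0.67 and 0.68 for SPRED1 (0.10 each).

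Among themselves the 10 genes followed a few orders of levels. FOS, EGR1, IER3, DUSP6 and SPRED1 all had CRPCCAFs with enzalutamide highest and CRPCCAFs with DMSO second. JUN had these groups in the opposite order, and its levels differed less, with a 2.13-fold span of group means. Across the 12 libraries Pearson's r of log2(RPKM + 1) was 0.967 for FOS and EGR1, 0.940 for IER3 and SPRED1, 0.924 for IER3 and DUSP6, and 0.911 for FOS and JUN. Other pairs were near 0: FOS had r of -0.0224 with FOSB, -0.135 with SPRY2 and 0.0754 with SPRY4. For IER2 and SPRY4 r was 0.807. These coefficients describe 6 groups of 2 libraries each rather than 12 independent points. The genes most like a member were taken by the same r over 12 libraries, among the genes tested whose highest and lowest group means differed by at least 1 on this scale and whose symbols are not clone or locus names. That left 2043 genes for FOS and SPRY4 and 2044 for DUSP6. For FOS they were AMOTL2 (0.979), SEMA4B (0.978), NOS3 (0.978), GBP2 (0.977) and DUSP5 (0.975), the last another MAP kinase phosphatase. DUSP6 was most like MKL1 (0.952), STMN4 (0.949), ETV4 (0.945), CDKN1B (0.944) and LRP4 (0.944). Its own values rested on 4 to 60 reads. STMN4, ETV4 and LRP4 averaged 1 RPKM or more only with CRPCCAFs and enzalutamide, the group where DUSP6 is highest. They could be eligible through that group, so part of this likeness may be built in. MKL1 encodes a coactivator of serum response factor, ETV4 an ETS factor, and CDKN1B an inhibitor of cyclin-dependent kinases. For SPRY4 they were DLX3 (0.993), ID1 (0.989), SAMD11 (0.987), KIFC2 (0.986) and P3H2 (0.986). DLX3 and P3H2 likewise averaged 1 RPKM or more only in the enzalutamide groups, where SPRY4 is high. ID1, an inhibitor of helix-loop-helix factors, averaged 32.3 RPKM alone with DMSO and 179 alone with enzalutamide, against 76.0 with CCAFs and 94.3 with CRPCCAFs under enzalutamide.

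Other immediate early genes were read from a list of 26, of which 18 passed the filter. Genes low elsewhere can pass through the groups where they are high, so counts and medians over this and the later lists are descriptions. The lists were also chosen with earlier results of these data known. With CRPCCAFs under DMSO, 14 of the 18 rose, with a median log2 difference of 0.85 against -0.02 over all genes tested, of which 14.3% rose and 16.3% fell. ATF3, a stress-induced transcription factor, rose 4.30-fold, CYR61, a secreted matrix protein, 4.16-fold, DUSP1, a nuclear MAP kinase phosphatase, 3.22-fold, and the Fos relative FOSL2 2.85-fold. With CCAFs under DMSO 6 rose (median 0.04 against -0.01), where 5.47% of all genes rose, FOSL2 among them at 1.80-fold. With CRPCCAFs under enzalutamide 15 rose and 2 fell (median 0.73 against -0.03), where 16.5% of all genes rose and 19.6% fell. The 2 that fell were MYC (1.84-fold lower), a growth-promoting transcription factor, and DUSP2 (2.15-fold lower), another MAP kinase phosphatase. With enzalutamide 7 of these 18 genes rose and 4 fell alone (median -0.05 against 0.04), where 30.1% of all genes rose and 25.3% fell. With CCAFs 7 rose and 6 fell (median -0.07 against 0.05), where 26.8% and 21.5% of all genes did. With CRPCCAFs 5 rose and 10 fell (median -0.29 against 0.05), where 30.5% and 24.7% of all genes did. MYC fell 5.20-fold alone, 3.20-fold with CCAFs and 9.11-fold with CRPCCAFs. ATF3 fell 1.90-fold and JUNB, a Jun protein of AP-1, rose 1.67-fold with CRPCCAFs. ATF3 stood at 28.3 ± 0.474 RPKM with CRPCCAFs and enzalutamide, between the 53.6 ± 0.264 with CRPCCAFs and DMSO and the 6.70 ± 0.691 alone with enzalutamide.

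Of 17 other outputs and feedback regulators of ERK, 12 were tested. ETV4 was among these through CRPCCAFs with enzalutamide, the only group where its mean reached 1 RPKM. FOSL1 is on this list and on the one before. With CRPCCAFs under DMSO 7 rose and 1 fell (median 0.28 against -0.02), where 14.3% and 16.3% of all genes did. Under enzalutamide 7 rose and 2 fell (median 0.42 against -0.03), where 16.5% and 19.6% of all genes did. ERRFI1, an inhibitor of the EGF receptor, rose 3.57-fold under DMSO and 2.31-fold under enzalutamide. DUSP5, a nuclear phosphatase of ERK, rose 4.84-fold and 9.08-fold. The ETS factor ETV4 rose 17.1-fold under enzalutamide, from 0.129 ± 0.0213 to 2.20 ± 0.146 RPKM, while its relative ETV1 was 1.55-fold lower. With CCAFs, ERRFI1 rose 1.58-fold and DUSP4 fell 2.11-fold under DMSO, and DUSP5 rose 2.41-fold and ETV1 1.24-fold under enzalutamide. With enzalutamide 2 of these 12 genes rose and 4 fell alone, where 30.1% and 25.3% of all genes did. With CCAFs 1 rose and 4 fell, where 26.8% and 21.5% did. With CRPCCAFs 4 rose and 4 fell, where 30.5% and 24.7% did. SPRED3 rose 2.27-fold with CCAFs and SPRED2 1.40-fold with CRPCCAFs. With the drug SPRY1, a relative of SPRY2 and SPRY4, fell 1.61-fold alone, 2.01-fold with CCAFs and 3.02-fold with CRPCCAFs. ETV1 fell 1.67-, 1.45- and 2.53-fold. SPRY4 and SPRY1 thus moved in opposite directions with the drug in all 3 cultures.

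Of 23 kinases, adaptors and effectors of the cascade itself, 22 were tested, and with CRPCCAFs 3 rose and 5 fell under DMSO (median -0.03 against -0.02) and 4 rose and 5 fell under enzalutamide (-0.04 against -0.03). Over all genes, as above, 14.3% rose and 16.3% fell under DMSO, and 16.5% and 19.6% under enzalutamide, and the same shares are the background of the ligands, receptors and heat shock genes. RPS6KA3, a kinase downstream of ERK, was 1.83-fold lower under DMSO, and ELK3, a ternary complex factor, was 1.55-fold higher under enzalutamide. Of 18 growth factor ligands only 6 were tested, and with CRPCCAFs 3 rose under DMSO (median 0.33 against -0.02) and 4 under enzalutamide (median 0.46 against -0.03). VEGFA, the endothelial growth factor, rose 4.33- and 7.01-fold, PDGFA, a platelet-derived growth factor, 2.17- and 1.72-fold, and HBEGF, a ligand of the EGF receptor, 1.69- and 1.67-fold. VEGFA also rose with CCAFs, 2.08-fold under DMSO and 1.61-fold under enzalutamide. Of 14 receptors 8 were tested, and with CRPCCAFs 5 rose under DMSO (median 0.17 against -0.02), and 3 rose and 1 fell under enzalutamide (median 0.03 against -0.03). EGFR rose 2.64- and 3.49-fold with CRPCCAFs and 2.02- and 1.83-fold with CCAFs. FGFR1 rose 1.40- and 3.38-fold with CRPCCAFs, and 1.35-fold with CCAFs under enzalutamide. ERBB2 rose with enzalutamide in all 3 cultures, 1.82-fold alone, 1.76-fold with CCAFs and 1.66-fold with CRPCCAFs. In the same order, IGF1R fell 2.64-, 5.01- and 4.26-fold, and EGFR 1.88-, 2.08- and 1.42-fold.

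Immediate early genes also respond to cell handling, and other cells can add RNA, so both were read from lists. Of 8 heat shock genes, 1 rose and 4 fell with CRPCCAFs under DMSO (median -0.11 against -0.02), and 1 rose and 2 fell under enzalutamide (median 0.02 against -0.03). HSPB1 rose 2.02-fold under DMSO and 3.32-fold under enzalutamide, while HSPA8 was 1.26- and 1.21-fold lower. The summed level of the list was 1416 to 1505 RPKM with CRPCCAFs and DMSO against 1410 to 1465 alone, and 1546 to 1574 against 1194 to 1240 under enzalutamide. All 10 luminal epithelial markers were at 1 RPKM or more in every group. Of 25 fibroblast markers, 8 to 11 were at 1 RPKM or more in each group, LNCaP alone included. Their summed level was 97.2 to 102 RPKM alone with DMSO, 138 to 143 with CCAFs and 214 to 224 with CRPCCAFs. Under enzalutamide it was 155 to 157, 149 in both CCAF libraries, and 296 to 305. Most of that rise was FN1, fibronectin, at 39.3 ± 1.71 RPKM alone and 136 ± 9.20 with CRPCCAFs under DMSO, and at 50.3 ± 2.01 and 183 ± 5.49 under enzalutamide. COL1A1, COL6A1, COL6A2, FN1, TAGLN, VIM and TWIST1 averaged 1 RPKM or more in all 6 groups. Of these, VIM, vimentin, was at 2.99 ± 0.864 RPKM alone and 10.3 ± 0.452 with CRPCCAFs under DMSO, and at 2.56 ± 0.0678 and 12.1 ± 0.453 under enzalutamide. COL1A1, a fibrillar collagen, was at 4.62 ± 0.186 and 7.74 ± 0.725 RPKM under DMSO, and at 7.81 ± 0.476 and 12.4 ± 0.245 under enzalutamide. COL5A2, ACTA2 and S100A4 reached 1 RPKM in some groups, LNCaP alone included, and COL5A1 only with CRPCCAFs and enzalutamide, at 1.94 ± 0.102 RPKM against 0.683 ± 0.0213 or less elsewhere. The fibroblast markers DCN, PDGFRA, FAP, THY1 and POSTN were at or near 0 in every library, none above 0.1 RPKM. COL1A2 was at 0 in both libraries of each coculture with enzalutamide. It was above 0 in at least 1 library of every other group, LNCaP alone included. The rest of the list, COL3A1, COL6A3, LUM, PDGFRB, SPARC, TWIST2, PRRX1 and MFAP5, averaged under 1 RPKM in every group, as did COL1A2. Of 8 leukocyte markers only CD68, also a lysosomal gene of other cells, reached 1 RPKM, with 4.49 ± 0.167 alone and 9.19 ± 0.879 with CRPCCAFs under DMSO and 21.9 ± 0.602 with CRPCCAFs and enzalutamide. Of 5 endothelial markers only VWF did, at 4.03 ± 0.273 RPKM at most, with CCAFs and enzalutamide. The sources used here do not state how reads of LNCaP cells were told from those of any mouse fibroblasts, and the part of these levels in the results above was not tested.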

How the data were processed

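RNA of 12 LNCaP libraries in 6 groups of 2 was analysed. Total RNA was extracted with Trizol and libraries made with the NEBNext Ultra kit for a HiSeq instrument, per the labels' protocols. Values are RPKM per gene symbol, as deposited by the authors and per the file headers. According to the submitters' processing notes, the authors used 3 tools (HISAT2, HTSeq, DESeq2) and the builds hg19 and mm10, with neither roles nor versions, and the table gives no positions. Of 44591 names, 27 were calendar dates and were removed. Reads per gene were recovered from the steps of the RPKM values, within 0.02 reads, for genes above 0 in at least 6 libraries, which covered at least 99.9% of each library's total. They give depth only, and no count test was run.

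A limma model (limma 3.58.1, R 4.3.3) of log2(RPKM + 1) with a mean-variance trend covered all 12 libraries and the 16042 genes with 2 or more libraries at 1 RPKM or above. The groups share 6 residual degrees of freedom. Tests are two-sided, with Benjamini-Hochberg adjustment within each of 12 comparisons and a threshold of 0.05. DUSP6, FOSB and SPRY2, under the filter, were read from a fit of all 33693 genes with a value above 0. The filtered fit was run on simulated data for CRPCCAFs against LNCaP alone under DMSO only, with known folds in genes averaging 1 RPKM or more. The fit without a filter and the differences of effect were not simulated. Folds are ratios of group means. The genes and lists were chosen with earlier results of these data known. Besides the 10 genes, the text names up to 4 genes of each list with the smallest adjusted p in a comparison (a group mean of 1 RPKM or more, libraries of the groups apart) and the 5 genes most like FOS, DUSP6 and SPRY4. Alternatives were a pseudocount of 0.1, no filter, median-of-ratios scaling, a replicate block, a fit of only the groups compared, each library left out in turn, and, chosen after seeing the data, a pseudocount of 0.1 with no filter and the same set for DUSP6, FOSB and SPRY2 in the fit without a filter. Promoter windows are from RefSeq on GRCh38.p14, not the build of the files. IER3 was not matched.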

Additional observations from a re-analysis of the deposited data

Results flagged for a closer look

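The effect of enzalutamide differed in at least 1 comparison of cultures for 6 of the 7 genes past the filter. This was tested as the difference itself, with values on the log2(RPKM + 1) scale and adjusted p from limma. Over all genes, 7.01% were called for CCAFs against alone, 7.01% for CRPCCAFs against alone and 6.45% for CRPCCAFs against CCAFs. The comparisons share libraries, and the share of all genes called in at least 1 of them was not computed. FOS, EGR1 and SPRY4 passed the filter through the groups where they are high, so the count of 6 is a description. Against LNCaP alone, coculture with CCAFs had an enzalutamide effect higher by 0.79 for FOS (adjusted p = 0.0095) and different by -1.19 for SPRY4 (adjusted p = 0.0016). SPRY4 rose with enzalutamide in both cultures, so the sign gives a smaller rise. Against LNCaP alone, coculture with CRPCCAFs differed by 1.13 for EGR1 (adjusted p = 0.0015), 1.06 for IER3 (0.0042), -0.35 for JUN (0.0063), 0.56 for SPRED1 (0.036) and -0.99 for SPRY4 (0.0052). Against CCAFs, CRPCCAFs differed by 0.77 for EGR1 (adjusted p = 0.011), 0.99 for IER3 (0.0061), -0.55 for JUN (0.00042) and 0.56 for SPRED1 (0.036). Of these differences SPRED1 was the least stable: each of its calls was lost in 7 of 8 fits that left out 1 library and with the replicate block (adjusted p = 0.053 and 0.052). EGR1 against CCAFs was lost in 2 such fits. In a fit of only the groups compared, the FOS difference was not called (adjusted p = 0.060), nor were those of SPRED1 (0.066 and 0.062). With a pseudocount of 0.1 alone, EGR1 against CCAFs (adjusted p = 0.40) and both SPRED1 differences (0.057 each) were not called. With a pseudocount of 0.1 and no filter only JUN and IER3 kept their calls. JUN was highest with CRPCCAFs under DMSO, at 30.0 ± 0.988 RPKM, and had 28.2 ± 0.929 RPKM there with enzalutamide.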

How the results depend on the processing

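Directions of the called differences did not reverse under any alternative run. Of 52 calls for the 7 genes past the filter, 40 kept their call in every fit without 1 library. The genes called per comparison then numbered 3 for enzalutamide alone, 4 to 5 with CCAFs and 5 with CRPCCAFs, and 0 for CCAFs against alone under DMSO. They numbered 4 to 5 for CRPCCAFs against alone and 3 to 4 against CCAFs under DMSO, and 2, 6 to 7 and 5 to 6 for the same 3 comparisons under enzalutamide. For the differences of the drug effect they numbered 2, 4 to 5 and 2 to 4. Over all genes the calls without 1 library were 7495 to 7746, 6131 to 6318 and 7239 to 7960 for enzalutamide alone, with CCAFs and with CRPCCAFs. For coculture under DMSO they were 640 to 826, 3389 to 4244 and 827 to 1959, and under enzalutamide 1673 to 1946, 4170 to 4393 and 3556 to 3839. For the differences of effect they were 627 to 814, 559 to 1123 and 582 to 1362. A lone library was assumed to vary like the other groups.

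Without a filter, 3 of the 10 genes were called for CRPCCAFs against CCAFs under DMSO, against 5 of the 7 past the filter. Over all genes 1668 of 33693 were called there, against 2156 of 16042. Fitting only the groups compared, which leaves fewer libraries and degrees of freedom, gave 0 for CCAFs against alone under DMSO, 3 for CRPCCAFs against CCAFs under DMSO, and 1 for the drug effect with CCAFs against alone. Over all genes it gave 3111 calls for CRPCCAFs against alone (4905 with all libraries) and 726 against CCAFs (2156), both under DMSO, and 654 for the drug effect with CRPCCAFs against alone (1125). A pseudocount of 0.1 gave 2 genes instead of 4, of the 7 past the filter, for the drug effect with CRPCCAFs against CCAFs, where EGR1 and SPRED1 lost their calls. Over all genes it gave 986 calls there (1034 in the main fit). A pseudocount of 0.1 with no filter gave 0, 2 and 2 of the 10 genes for the 3 differences of effect. Over all 33693 genes it gave 810, 790 and 779.

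The replicate numbers did not pair the libraries: deviations of same-numbered libraries from their group means correlated from -0.0617 to 0.0840 over 15 pairs of groups. With the replicate block, the SPRED1 differences of effect were 0.56 each (adjusted p = 0.053 and 0.052), and no other call changed for the 7 genes past the filter, nor for DUSP6, FOSB and SPRY2 with the block in the fit without a filter. Depth limits DUSP6, FOSB and SPRY2 most, with as few as 4, 11 and 16 reads.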
